A study of Homo sapiens with 6 samples.

Results

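Interferon-stimulated genes are described here in PC-3, an established cell line from a human prostate carcinoma, of which the study compared the sublines PC-3/Mc and PC-3/S. The 47 genes were taken from a fixed list of symbols, which was chosen with earlier results of these data known. Their 85 probe sets are those that the platform annotation gives to 1 listed symbol alone. All 47 were measured, among 19775 genes in all, and each is represented by its brightest probe set over the arrays. Each line was measured on 3 one-colour arrays, called biological replicates in the labels, of cells harvested at 70 to 80% confluence. No treatment is named for either line, and the groups differ by line only. The labels do not say how the sublines were derived or whether the replicates were separate cultures, so p-values measure the spread between these arrays, which may be technical. A difference is the PC-3/Mc mean less the PC-3/S mean in log2 units, n = 3 arrays per line throughout, given with their standard error. A gene is called at an adjusted p under 0.05 in limma, with Benjamini-Hochberg adjustment over all genes.

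Interferons are secreted proteins that bind cell surface receptors, activate the JAK1 and TYK2 kinases and lead to a complex containing IRF9 that binds a short DNA element in front of its target genes. The targets encode proteins that sense viral RNA, block viral entry, translation and replication, attach the ubiquitin-like protein ISG15 to other proteins, and feed back on the pathway. In tumor cells these genes are often expressed without any virus present, at levels that differ between lines.

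The arrays were alike in brightness, with medians from 4.98 to 5.09, and correlated at 0.995 to 0.997 within a line and 0.949 to 0.953 between lines. The simple-epithelium keratins KRT8 and KRT18 read at least 8.68 in every array, but their levels differed by line. PC-3/Mc had the higher mean for KRT8 (9.81 ± 0.09 (SD) against 8.78 ± 0.14) and for KRT18 (12.48 ± 0.13 against 11.32 ± 0.01), and both were called. E-cadherin (CDH1), another epithelial marker, was at 7.67 ± 0.19 (SD) in PC-3/Mc, and 4.0 ± 0.08 for PC-3/S. Of the other epithelial markers, EPCAM was at 11.88 ± 0.19 against 6.44 ± 0.22 and KRT19 at 11.28 ± 0.07 against 11.76 ± 0.03. Thus 4 of these 5 epithelial markers were called higher, each past 2-fold, and KRT19 was called lower. Of 7 fibroblast markers, 3 were higher in PC-3/Mc, among them COL1A2 (8.48 ± 0.15 against 4.36 ± 0.23) and LUM (6.04 ± 0.4 against 4.23 ± 0.33), 2 lower and 2 not called, and their summed log2 values were 41.2 to 42.2 in PC-3/Mc and 35.7 to 37.3 in the other line. Of 5 endothelial markers, KDR was lower (4.06 ± 0.06 against 6.23 ± 0.21), PECAM1 higher and the other 3, CDH5, VWF and TEK, at background in both lines, with summed values of 24.5 to 25.3 and 26 to 26.9. The part of these marker differences in the results was not tested. Of 11 measured blood cell markers, 10 averaged at or under 5.18 in each line, the top reading of CTNNA1, which PC-3 cells lack through a deletion. The blood markers' summed log2 values were 47.8 to 49.9 in the PC-3/Mc arrays and 48.1 to 49.7 in the others. Readings up to 5.18 are treated as possible background. Where the dimmer line averaged there, a fold is given as a lower bound against that reading. A lower signal in such bulk RNA can come from fewer cells with the transcript or from less transcript per cell, and these cannot be told apart.

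Most interferon-stimulated genes were lower in PC-3/Mc. Of the 47, 34 were called lower (72.3%, against 22.7% of all genes), 8 higher (17.0%, against 23.2%) and 5 were not called. Over all genes, 45.9% were called in either direction. The measured difference was at least 2-fold for 24 of the lower members (51.1%, against 5.58% of all genes), and for 23 when lower bounds replaced folds against possible background. No member was higher by that much, where 5.88% of all genes were. The median difference of the members was -1.06, beside -0.03 for all genes. Every PC-3/Mc array read below every PC-3/S array in 34 of the 47 members (72.3%), those called lower, against 26.8% of all genes. Every PC-3/Mc array read above in 8 of the 47 (17.0%), those called higher, against 26.3% of all genes. Measured differences ran from -3.81 for MX1, whose PC-3/Mc mean was at possible background, to 0.85 for TRIM14. The lower bounds were at least 8.05-fold for MX1 and at least 10.4-fold for IFITM1, and such bounds cannot rank these genes. Over the 85 probe sets, tested beside all others, 57 were lower, 10 higher and 18 not called. Among all 54613 probe sets, 17.5% were lower and 18.4% higher. Of the 18 not called, 10 were at background in both lines. Of 24 members with several probe sets, 17 had the same call on all of them and 0 had calls in opposite directions.

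**Figure D1:**
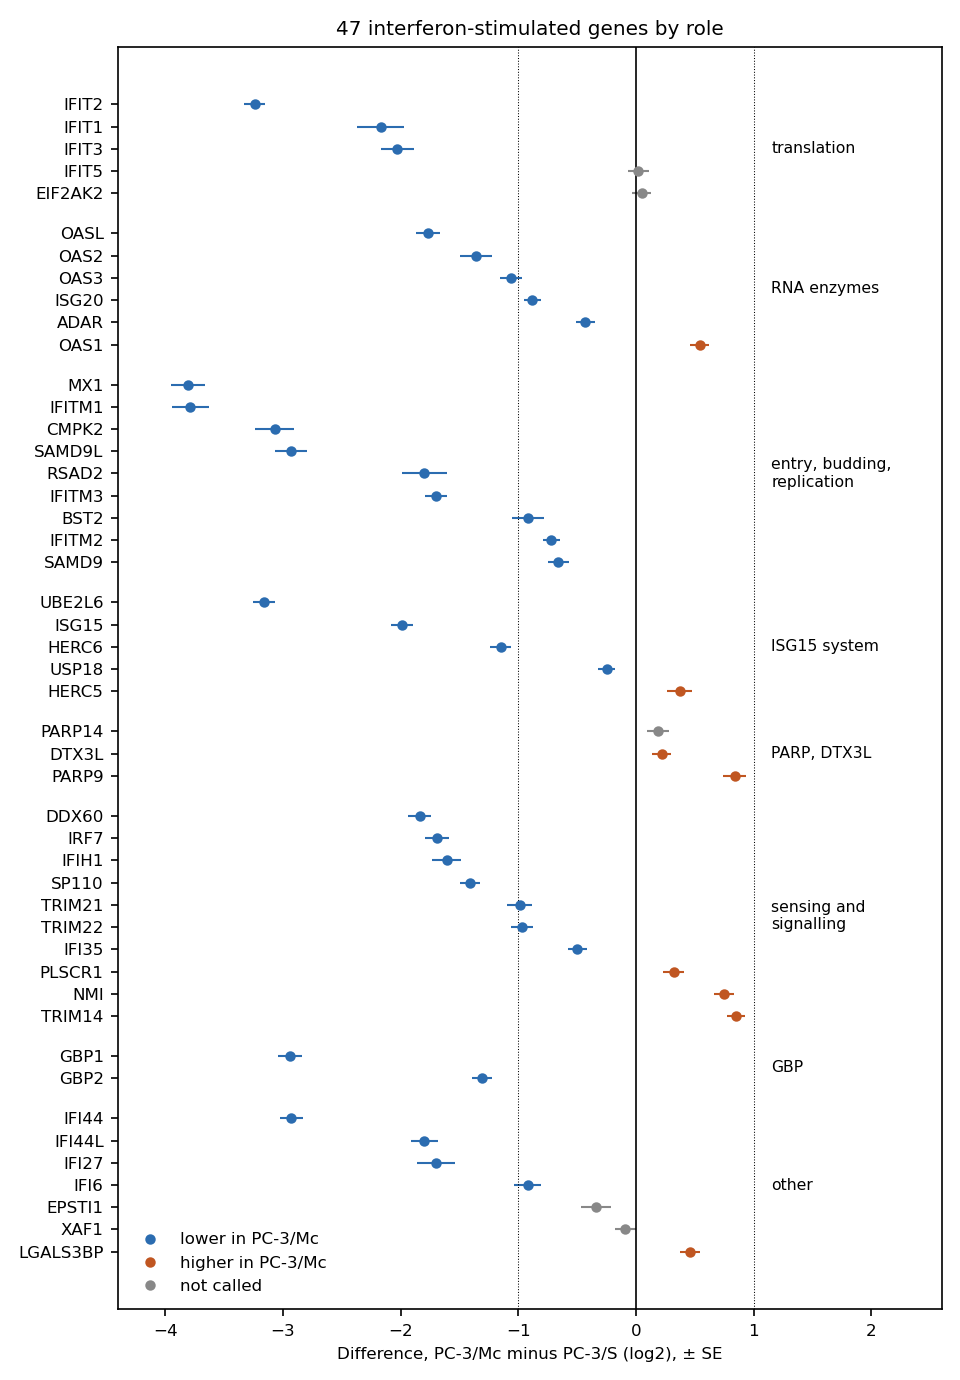
Differences of the 47 genes, PC-3/Mc less PC-3/S (log2, horizontal axis), grouped by role, with bars for the standard error and dotted lines at 2-fold. The 34 lower genes reach -3.81 as measured, whereas the 8 higher genes stay under 2-fold, with a maximum of 0.85.

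**Figure D2:**
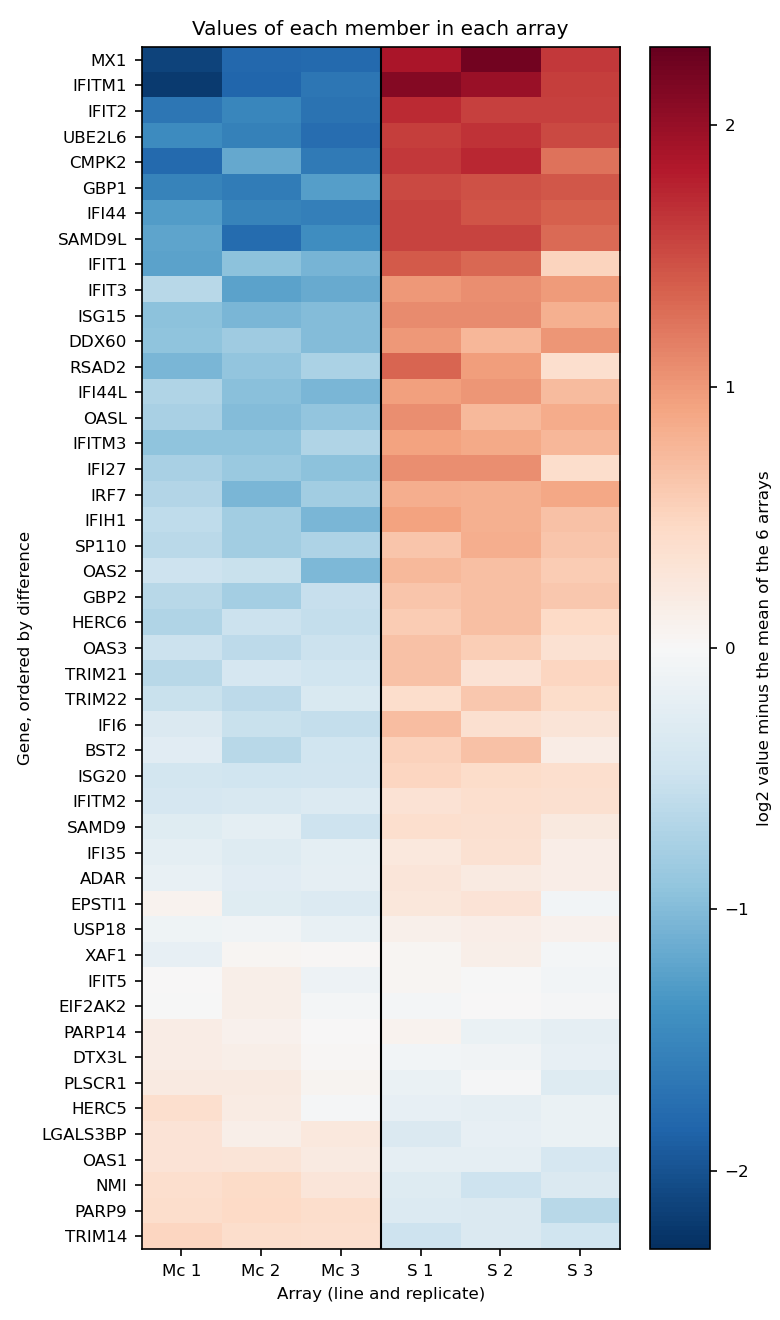
Log2 value of each gene in each of the 6 arrays after subtracting that gene's mean over the arrays (colour), with genes ordered by their difference. In the rows from MX1 down to ADAR and in USP18 the 3 PC-3/Mc arrays are below the 3 PC-3/S arrays. The bottom 8 rows, DTX3L to TRIM14, run the other way.

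The element bound by the interferon-activated factor is visible in the promoters of members that moved in either direction and of members that did not. RefSeq promoter windows (GRCh38.p14, from 250 bases before to 50 bases after the start) were matched for 39 members. The core of this element, searched as GAAA and GAAA with 2 bases of any kind between them, on either strand and with overlapping matches counted, was in 28 of them (71.8%), against 3.65% of 27305 promoter windows. By call it was in 18 of 26 lower members (69.2%), 6 of 8 higher members (75.0%) and 4 of 5 members not called (80.0%). The longer form with CT after the second GAAA, which contains the first, was in 16 members (41.0%, against 0.271%), of which 11 were lower, 2 higher and 3 not called. The gamma-activated site motif TTCNNNGAA was in 10 members (25.6%, against 7.88%). The stretches below are the 250 bases before the start, 5′ to 3′ on the gene's strand, and capitals mark the core or its reverse complement. They were chosen with the values known, to set members of the 3 outcomes side by side, and matches that run past the start are not in capitals. The first 4 belong to members that were at least 2-fold lower in PC-3/Mc.
IFITM1, chr11:313790-314039, plus strand: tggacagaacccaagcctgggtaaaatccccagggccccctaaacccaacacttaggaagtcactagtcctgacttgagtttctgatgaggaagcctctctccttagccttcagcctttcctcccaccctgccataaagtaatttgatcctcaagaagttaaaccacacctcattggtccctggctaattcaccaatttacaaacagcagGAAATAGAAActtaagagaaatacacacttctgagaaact
IFIT1, chr10:89392373-89392622, plus strand: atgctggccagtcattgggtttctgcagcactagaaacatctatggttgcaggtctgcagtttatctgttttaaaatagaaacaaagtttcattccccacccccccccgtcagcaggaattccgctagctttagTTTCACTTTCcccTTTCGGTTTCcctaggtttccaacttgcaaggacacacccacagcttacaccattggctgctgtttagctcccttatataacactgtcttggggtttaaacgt
ISG15, chr1:1013247-1013496, plus strand: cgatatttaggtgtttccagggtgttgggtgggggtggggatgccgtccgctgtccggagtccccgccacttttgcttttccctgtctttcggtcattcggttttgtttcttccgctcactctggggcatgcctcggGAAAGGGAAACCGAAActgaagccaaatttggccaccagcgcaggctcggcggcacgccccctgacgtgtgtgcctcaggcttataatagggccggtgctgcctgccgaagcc
IFI44, chr1:78649539-78649788, plus strand: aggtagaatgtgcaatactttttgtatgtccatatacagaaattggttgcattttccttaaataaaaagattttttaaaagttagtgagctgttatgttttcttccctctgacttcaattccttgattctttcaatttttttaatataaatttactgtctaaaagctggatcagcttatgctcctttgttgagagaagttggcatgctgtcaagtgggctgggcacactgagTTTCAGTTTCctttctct
HERC5 and TRIM14 were higher in PC-3/Mc.
HERC5, chr4:88456869-88457118, plus strand: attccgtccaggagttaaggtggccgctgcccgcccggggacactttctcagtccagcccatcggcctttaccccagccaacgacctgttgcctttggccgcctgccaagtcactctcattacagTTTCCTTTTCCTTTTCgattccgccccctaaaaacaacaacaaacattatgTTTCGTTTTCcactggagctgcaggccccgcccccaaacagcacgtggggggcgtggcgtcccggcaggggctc
TRIM14, chr9:98119223-98119472, minus strand: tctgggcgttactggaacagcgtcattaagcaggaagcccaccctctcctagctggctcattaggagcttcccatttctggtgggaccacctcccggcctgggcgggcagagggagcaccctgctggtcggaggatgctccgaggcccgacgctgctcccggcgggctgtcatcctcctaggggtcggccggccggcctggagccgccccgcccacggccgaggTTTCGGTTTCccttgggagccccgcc
IFIT5 and PARP14 were not called.
IFIT5, chr10:89414318-89414567, plus strand: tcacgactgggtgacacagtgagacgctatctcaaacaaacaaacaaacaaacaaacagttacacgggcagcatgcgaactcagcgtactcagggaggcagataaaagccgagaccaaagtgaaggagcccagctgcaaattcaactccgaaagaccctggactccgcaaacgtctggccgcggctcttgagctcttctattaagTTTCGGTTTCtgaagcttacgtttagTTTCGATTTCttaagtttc
PARP14, chr3:122680589-122680838, plus strand: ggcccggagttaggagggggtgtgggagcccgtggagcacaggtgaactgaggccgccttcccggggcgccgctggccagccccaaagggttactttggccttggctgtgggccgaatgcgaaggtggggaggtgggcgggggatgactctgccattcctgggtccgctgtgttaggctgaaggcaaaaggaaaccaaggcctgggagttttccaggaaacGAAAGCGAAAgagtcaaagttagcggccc
IFIT1 and IFIT5, neighbours on chromosome 10, carry 2 marked matches each, and HERC5 carries 3, of which 2 overlap. A match is a description of letters and not of binding.

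Among genes that restrain viral protein synthesis, the IFIT family split. IFIT2, an RNA-binding protein of the family, read 5.36, 5.53 and 5.33 in PC-3/Mc, and 8.75, 8.60 and 8.60 for PC-3/S, 9.45-fold lower (-3.24 ± 0.088, adjusted p = 4.7e-10). IFIT1, which binds viral messenger RNA caps, read 5.98, 6.26 and 6.14 against 8.62, 8.54 and 7.73 (-2.17 ± 0.199, adjusted p = 4.9e-06). The third PC-3/S array was the lowest of its line by a wide margin and still above every PC-3/Mc array. IFIT3, the partner that stabilises IFIT1, read 6.71, 6.12 and 6.19 against 8.35, 8.43 and 8.33 (-2.03 ± 0.139, adjusted p = 5.2e-07). IFIT5, the other measured family member in the cluster, read 8.39, 8.50 and 8.26 against 8.41, 8.37 and 8.31, with overlapping arrays (0.02 ± 0.086, adjusted p = 0.864). Its dimmer probe set was called lower by a small margin (-0.30 ± 0.1, adjusted p = 0.0361). EIF2AK2 encodes PKR, the kinase that halts translation on double-stranded RNA, and read 8.78, 8.93 and 8.75 against 8.74, 8.8 and 8.76 (0.05 ± 0.081, adjusted p = 0.641). None of its 3 probe sets was called.

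The oligoadenylate synthetases, which make the messenger that switches on RNase L, did not move as one. OASL, a relative without synthetase activity, read 6.35, 6.11 and 6.19 in PC-3/Mc against 8.17, 7.85 and 7.95 (-1.77 ± 0.104, adjusted p = 1.6e-07). OAS2 read 5.45, 5.41 and 4.90 against 6.68, 6.62 and 6.51 (-1.36 ± 0.136, adjusted p = 9.8e-06), and its other 2 probe sets differed by -2.29 and -0.78. OAS3 read 7.58, 7.48 and 7.59 against 8.75, 8.65 and 8.43 (-1.06 ± 0.095, adjusted p = 4.2e-06). OAS1 ran against its relatives. It read 7.92, 7.90 and 7.81 in PC-3/Mc, and 7.39, 7.39 and 7.22 for PC-3/S, higher in PC-3/Mc by 0.54 ± 0.083 (adjusted p = 2.5e-04), and its other probe set was higher as well (0.95 ± 0.122). The exonuclease gene ISG20 (-0.88 ± 0.075) and ADAR, which edits adenosines in double-stranded RNA (-0.43 ± 0.078), were lower by less than 2-fold.

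All 9 genes that act on entry, budding or replication were lower in PC-3/Mc, where 22.7% of all genes were. As measured, 6 of them were at least 2-fold lower (66.7%, against 5.58% of all genes). MX1, the dynamin-like GTPase that traps viral nucleocapsids, read 4.15, 4.48 and 4.49 against 8.16, 8.49 and 7.90, at least 8.05-fold lower (-3.81 ± 0.146, adjusted p = 6.3e-09). IFITM1, a membrane protein that blocks viral fusion, read 4.45, 4.84 and 4.99 against 8.77, 8.64 and 8.25, at least 10.4-fold lower (-3.79 ± 0.157, adjusted p = 1.1e-08). CMPK2, a mitochondrial nucleotide kinase, read 4.43, 5.05 and 4.60 against 7.85, 7.95 and 7.47, at least 5.99-fold lower (-3.07 ± 0.164, adjusted p = 8.1e-08). PC-3/Mc averaged at possible background for all 3 genes, and the lines stood far apart. SAMD9L, a restriction factor of poxviruses, was at least 6.83-fold lower. For its neighbour SAMD9 the difference was -0.66 ± 0.091. RSAD2 (viperin), which makes a chain-terminating nucleotide, was at 3.81 ± 0.16 (SD) against 5.60 ± 0.47, a bound of at least 1.34-fold. BST2 (tetherin), which holds budding virions at the membrane, was dim at 4.38 ± 0.19 against 5.31 ± 0.26, at least 1.09-fold. IFITM3 (-1.70 ± 0.091) and IFITM2 (-0.72 ± 0.074) stayed bright in both lines, with no mean under 10.14. These paralogs are near copies and their probe sets, marked as open to cross-hybridisation, may share signal, so the split among the 3 IFITM genes is uncertain.

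ISG15 itself, the ubiquitin-like modifier, read 10.04, 9.92 and 9.99 in PC-3/Mc against 12.06, 12.06 and 11.80 in PC-3/S, 3.97-fold lower (-1.99 ± 0.092, adjusted p = 2.7e-08). UBE2L6, the enzyme that carries ISG15 to its ligases, read 6.04, 5.94 and 5.73 against 9.07, 9.14 and 9.0, 8.96-fold lower (-3.16 ± 0.095, adjusted p = 9.4e-10). HERC6, a HECT-domain ligase, read 5.29, 5.48 and 5.42 against 6.56, 6.66 and 6.43 (-1.15 ± 0.090, adjusted p = 1.5e-06), and its other probe set, at background in both lines, was not called. Its neighbour HERC5, the main ligase for ISG15 in human cells, was higher in PC-3/Mc. It read 7.90, 7.69 and 7.49 against 7.32, 7.30 and 7.35 (0.37 ± 0.104, adjusted p = 0.0127). The modifier and its carrier enzyme were thus lower in the line in which this ligase was higher. USP18, which removes ISG15 and restrains the interferon receptor, was called lower by only -0.25 ± 0.075 (adjusted p = 0.0194). Its call was lost without PC-3/S replicate 1 (-0.25, adjusted p = 0.0634), without PC-3/S replicate 2 (-0.23, adjusted p = 0.0727), with arrays centred on their medians (-0.20, adjusted p = 0.0807) and with a replicate block (adjusted p = 0.0531).

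Of the 3 ADP-ribosylation genes, 0 were called lower (against 22.7% of all genes) and 2 higher (66.7%, against 23.2%). Shares over so few genes say little about the role. PARP9, which pairs with the ubiquitin ligase DTX3L to modify histones, read 8.62, 8.66 and 8.62 in PC-3/Mc against 7.90, 7.88 and 7.58 (0.84 ± 0.097, adjusted p = 2.8e-05). Its other probe set, above background, gave -0.07 ± 0.094 (adjusted p = 0.653), so the direction rests on 1 of 2 probe sets. DTX3L, its neighbour, read 9.40, 9.37 and 9.26 against 9.18, 9.16 and 9.04 (0.22 ± 0.081, adjusted p = 0.0481). The DTX3L call was lost without any one of PC-3/Mc replicates 1 and 2 and PC-3/S replicates 1, 2 and 3 (0.18 to 0.25, adjusted p = 0.0763 to 0.155), after quantile normalization (0.12, adjusted p = 0.242), with a replicate block (adjusted p = 0.0782), on probe sets other than _x_at and _s_at (adjusted p = 0.0673) and when adjusted over all probe sets (adjusted p = 0.0746). PARP14, a mono-ADP-ribosyltransferase, read 8.03, 7.95 and 7.87 against 7.93, 7.71 and 7.65, with overlapping arrays and no call (0.19 ± 0.094, adjusted p = 0.140). It passed narrowly without PC-3/S replicate 1 (0.27, adjusted p = 0.0496), and its dim second probe set was called lower (-0.42 ± 0.087).

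Sensors and signalling genes gave 7 lower and 3 higher of 10 (70.0% and 30.0%, against 22.7% and 23.2% of all genes). DDX60, a helicase linked to RNA sensing, read 4.40, 4.51 and 4.33 in PC-3/Mc against 6.33, 6.09 and 6.34, at least 2.11-fold lower (-1.84 ± 0.094, adjusted p = 5.6e-08). IRF7, the factor that amplifies interferon production, read 6.97, 6.59 and 6.84 against 8.49, 8.46 and 8.53 (-1.69 ± 0.102, adjusted p = 1.9e-07). IFIH1 encodes MDA5, a sensor of long double-stranded RNA, and read 5.17, 4.95 and 4.70 against 6.68, 6.56 and 6.42, at least 2.6-fold lower (adjusted p = 1.0e-06). The nuclear body gene SP110 was lower on all 5 of its probe sets (-1.59 to -0.99). TRIM21, the cytosolic antibody receptor (-0.99 ± 0.105), TRIM22 (-0.97 ± 0.094, at background in both lines) and IFI35 (-0.50 ± 0.082) were lower too. NMI, the binding partner of IFI35, went the other way, at 9.84, 9.90 and 9.73 against 9.15, 8.97 and 9.12 (0.75 ± 0.085, adjusted p = 2.7e-05). TRIM14, an adaptor of mitochondrial antiviral signalling, read 9.81, 9.73 and 9.70 against 8.84, 8.98 and 8.86 (0.85 ± 0.080, adjusted p = 6.0e-06). Of its other 4 probe sets, 2 were called higher and 2, at background, were not called; when _x_at and _s_at probe sets were left out, a background probe set represented it (0.22, adjusted p = 0.0798). PLSCR1, a phospholipid scramblase, read 9.83, 9.82 and 9.68 against 9.46, 9.60 and 9.33 (0.32 ± 0.091, adjusted p = 0.0152). That call was lost without PC-3/Mc replicate 1 or 2 or PC-3/S replicate 3 (0.25 to 0.29, adjusted p = 0.0509 to 0.0635) and after quantile normalization (0.21, adjusted p = 0.0937). With _x_at and _s_at probe sets left out, a probe set at background in both lines represented PLSCR1 (0.05, adjusted p = 0.747), which cannot test the call. Its other probe set above background was not called either (0.30 ± 0.126, adjusted p = 0.0866).

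Both guanylate-binding GTPases among the members, which act on membranes of intracellular pathogens, were lower in PC-3/Mc, where 22.7% of all genes were. Outside the members, GBP3 of this family was lower (-1.77 ± 0.112), and GBP4 and GBP5, at background in both lines, were not called. GBP1 read 4.13, 4.06 and 4.41 against 7.19, 7.14 and 7.10, at least 3.90-fold lower (-2.94 ± 0.1, adjusted p = 2.4e-09), with 2 further probe sets at -2.99 and -2.95 and another, at background, not called. GBP2 read 5.09, 4.96 and 5.2 against 6.38, 6.43 and 6.35, at least 2.31-fold lower (-1.31 ± 0.085, adjusted p = 3.5e-07). Among the remaining genes, IFI44 read 4.58, 4.33 and 4.28 against 7.42, 7.31 and 7.24, at least 4.43-fold lower (-2.93 ± 0.098, adjusted p = 2.1e-09). Its neighbour IFI44L read 5.57, 5.3 and 5.2 against 7.2, 7.28 and 6.99 (-1.80 ± 0.113, adjusted p = 2.8e-07). IFI27, a small membrane protein, read 4.90, 4.79 and 4.71 against 6.72, 6.72 and 6.05, at least 2.5-fold lower (adjusted p = 6.3e-06), and IFI6, its mitochondrial relative, differed by -0.92 ± 0.114. LGALS3BP, a secreted glycoprotein that binds galectins, was higher in PC-3/Mc, at 9.63, 9.45 and 9.57 against 8.99, 9.13 and 9.17 (0.46 ± 0.086, adjusted p = 0.00108). XAF1, a proapoptotic antagonist of XIAP, read 4.63, 4.86 and 4.84 against 4.86, 4.96 and 4.78 and was not called (-0.09 ± 0.091, adjusted p = 0.485). All 3 of its probe sets were at background in both lines. EPSTI1, at background too, read 4.52, 4.16 and 4.13 against 4.70, 4.75 and 4.37 (-0.34 ± 0.129, adjusted p = 0.0544). It passed without PC-3/Mc replicate 1 (adjusted p = 0.0129), without PC-3/S replicate 3 (adjusted p = 0.0133), with a replicate block (adjusted p = 0.0418) and with trend and robust variance estimation (adjusted p = 0.0348).

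The third PC-3/S array held the lowest value of its line for 34 of the 47 members (72.3%). For 26 of the 34 lower members (76.5%) it was the lowest of the PC-3/S arrays. It was also the lowest for 8 of the 13 members not called lower (61.5%), with a median of -0.12 against the mean of the other PC-3/S arrays. Over all genes the share was 36.4%, over all genes called lower in PC-3/Mc 29.4%, and over those lower by at least 2-fold 18.9%. Against the mean of the other PC-3/S arrays its members stood lower by a median of -0.13 and by up to -0.85 for IFIT1, -0.75 for RSAD2, -0.67 for IFI27, -0.45 for IFITM1, -0.43 for CMPK2 and BST2 and -0.42 for MX1. GBP1 (-0.06), IFIT2 (-0.07) and IFIT3 (-0.06) hardly moved with it. Of the 31 other interferon-stimulated genes called lower, it was the lowest array for 10 (32.3%). The median of the third PC-3/S array was 5.02, against 5.06 and 5.09 in the other PC-3/S arrays. Its 3′ less 5′ signal of the GAPDH control, a sign of RNA quality, was 0.01, against 0.04 and 0.07. For the ACTB control this difference was 0.19, the largest of the 6 arrays, against 0.11 and 0.08. The part of these control values in the result was not tested. Without this array 35 members were called lower, against 34 with it.

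**Figure D3:**
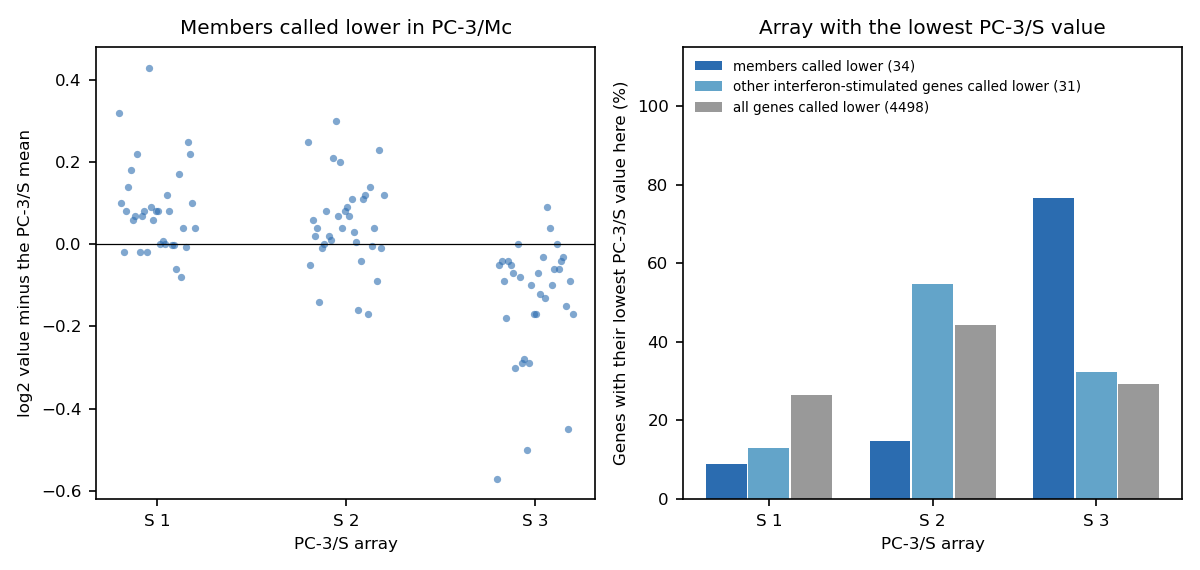
Left, each of the 34 lower members in each PC-3/S array as log2 value minus its PC-3/S mean; right, the share of genes with their lowest PC-3/S value in each array (percent). Replicate 3 was lowest for 76.5% of these members, for 32.3% of the other interferon-stimulated genes called lower and for 29.4% of all genes called lower.

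Members that lie side by side on a chromosome did not always share a call. In the RefSeq gene order (GRCh38.p14), 22 members formed 9 runs with no other measured gene between them. All members were lower in 5 runs (IFI44L and IFI44; GBP1 and GBP2; the 3 IFITM genes; CMPK2 and RSAD2; SAMD9 and SAMD9L). In 3 runs they differed in call: IFIT5 beside IFIT1, IFIT2 and IFIT3, OAS1 beside OAS2 and OAS3, and HERC5 beside HERC6. In the remaining run, PARP9 and DTX3L were both higher. Of the 18 measured genes that flank these runs, 2 were lower, 3 higher and 13 not called, beside 22.7% lower and 23.2% higher of all genes. Of those not called, 10 were at background in both lines. The lower ones were GBP3 (-1.77 ± 0.112), itself an interferon-stimulated gene beside GBP1, and the phosphatase gene PPM1K (-0.26 ± 0.094). The higher ones were GRASLND beside RSAD2 (1.54 ± 0.088), the prostaglandin receptor gene PTGFR beside IFI44L (1.52 ± 0.097) and the importin gene KPNA1 beside PARP9 (0.86 ± 0.073).

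**Figure D4:**
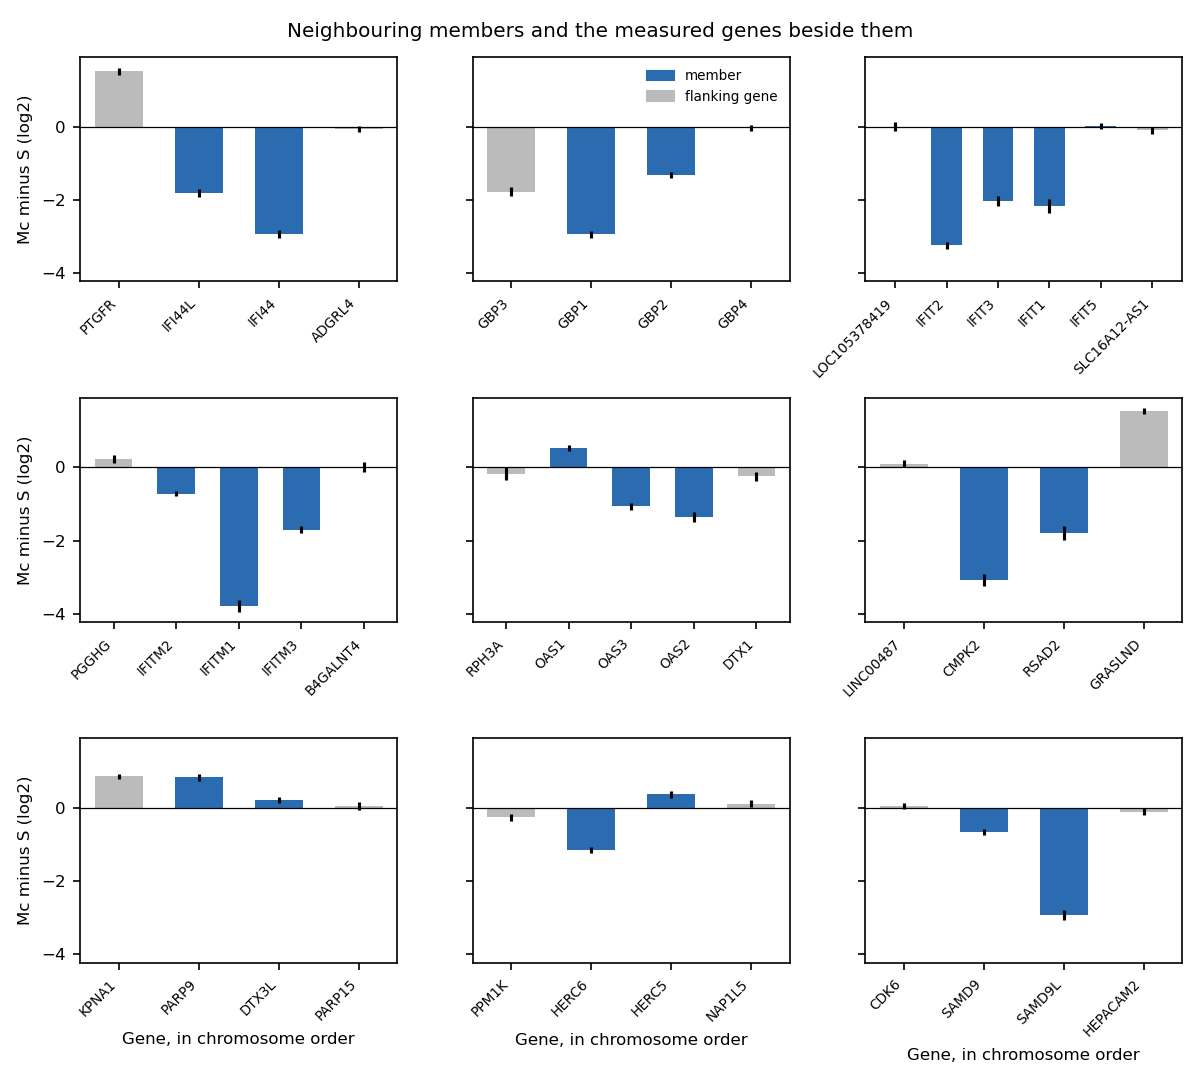
Differences, PC-3/Mc less PC-3/S (log2), for the 9 runs of neighbouring members (blue) and the measured genes on either side (grey), in chromosome order, with bars for the standard error. The runs with OAS1 and HERC5 hold members called in opposite directions and the run with IFIT5 holds 1 member that was not called. Of the 18 flanking genes 13 were not called, 10 of them at background in both lines.

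Upstream genes of the pathway were lower in part. Of the interferon ligands, 12 were measured and all averaged under 5.18 in both lines; IFNE (-0.61 ± 0.119) and IFNB1 (-0.31 ± 0.1) were called lower within that range. Of 9 receptor and kinase genes, 5 were lower (55.6%, against 22.7% of all genes), 3 higher (33.3%, against 23.2%) and 1 not called. The receptor subunits for type I interferon, IFNAR1 (-1.17 ± 0.093) and IFNAR2 (-1.18 ± 0.077), and IL10RB (-1.46 ± 0.108) were lower by more than 2-fold, and the kinase gene TYK2 was lower by -0.86 ± 0.085. JAK1 was at 9.96 ± 0.06 (SD) and 9.91 ± 0.07 and was not called (0.05 ± 0.080, adjusted p = 0.636). IFNLR1, the receptor subunit for interferon lambda, was higher (1.19 ± 0.083). IRF9, the DNA-binding part of the interferon-activated complex, was at 6.28 ± 0.06 (SD) against 8.41 ± 0.22, 4.40-fold lower (adjusted p = 6.1e-08), and IRF1 differed by -2.24 ± 0.088. In the list of STAT and IRF factors 5 of 8 were lower (62.5%), 1 higher (12.5%) and 2 not called.

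Nucleic acid sensors and adaptors numbered 6 lower, 4 higher and 7 not called of 17 (35.3% lower and 23.5% higher, against 22.7% and 23.2% of all genes), and 7 were at background in both lines. Those past 2-fold were RIGI, the sensor of uncapped RNA (-1.79 ± 0.099), and, in the other direction, CGAS, the sensor of cytosolic DNA (1.06 ± 0.096). Negative regulators of the pathway gave 2 lower, 3 higher and 3 not called of 8 (25% lower and 37.5% higher), none by 2-fold. Of 61 other interferon-stimulated genes, 31 were lower (50.8%, against 22.7% of all genes), 8 higher (13.1%, against 23.2%) and 22 not called. At background in both lines were 13 of the 61, and the median difference of the 61 was -0.27. The largest measured differences among them, all against PC-3/Mc means at possible background, were those of the immunoproteasome gene PSMB9 (-3.74 ± 0.109, at least 5.82-fold), SLFN11, which blocks replication under stress (-3.30 ± 0.090, at least 3.82-fold), and CD274, the immune checkpoint ligand PD-L1 (-2.84 ± 0.106, at least 4.26-fold). The peptide transporter gene TAP1 was above background in both lines and 5.67-fold lower. Lower bounds cannot rank SLFN11 and CD274 against it. Of the 61, 4 were higher by at least 2-fold, where 5.88% of all genes were. In PC-3/Mc 3 of the 4 reached the median level of all genes. They were the tryptophanyl-tRNA synthetase gene WARS1 (1.32 ± 0.079), the mitochondrial ribonuclease gene PNPT1 (1.09 ± 0.074) and the aminopeptidase gene LAP3 (1.08 ± 0.083).

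**Figure D5:**
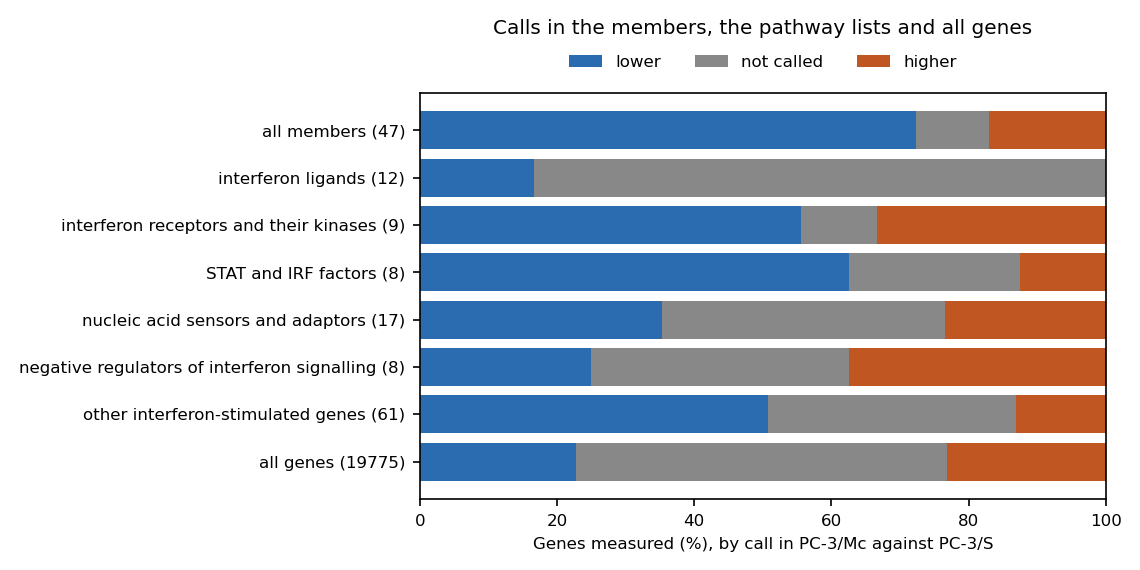
Share of measured genes (percent) called lower, not called and higher in PC-3/Mc for the 47 members, 6 lists of other genes of the pathway and all 19775 genes, with the number measured in brackets. Lower calls made up 72.3% of the members, 50.8% of the other interferon-stimulated genes and 22.7% of all genes.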

How the data were processed

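RNA of PC-3/Mc and PC-3/S, with 3 replicates each, was isolated on columns and labelled for one-colour Affymetrix arrays, per the labels' protocols. The starting values are the processed log2 expression values deposited by the authors, 54675 probe sets in 6 arrays. The sources used here do not give the software, the background correction or the scaling behind them. Base 2 was inferred from the range of 2.59 to 14.45. The platform annotation gave 1 gene symbol for 41091 probe sets, several for 1801 and none for 11721, and 62 are controls. Each of 19775 genes was taken at its brightest probe set, and PC-3/Mc was compared with PC-3/S in limma 3.58.1 (R 4.3.3; lmFit, eBayes, two-sided, no covariates, Benjamini-Hochberg adjustment); the median standard error was 0.092. The number of arrays limits the precision. The limma script was tested on simulated data. Alternatives changed normalization, probe set choice, dim-gene filter, variance model and pairing, or left out each array. Same-numbered arrays did not vary together.

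The possible background reading (CTNNA1) was chosen after its values were seen. The members, lists and motifs were chosen with earlier results of these data known. Arrays are given for the 3 largest called members of each role, those called higher and those not called. Of the other genes of the pathway, JAK1, TYK2, IRF1, IRF9 and the type I receptor genes are given whatever their values. In each list up to 3 called genes per direction are added, of at least 2-fold and with a higher mean reaching the median of all genes (5.98). Promoter sequences come from RefSeq (GRCh38.p14), and 39 members matched. Protein sequences were not used here, and some genes of the pathway are not reported here.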

Additional observations from a re-analysis of the deposited data

How the results depend on the processing

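Under the alternatives, 609 values of single members kept direction and side of the threshold, 19 lost the call, 5 gained it and 9 changed sign. When any one array was left out, the members called lower numbered 33 to 35, those called higher 6 to 8, those at least 2-fold lower 24 to 26, and the median difference was -1.15 to -1.01. When _x_at and _s_at probe sets were left out, 36 members remained measured, of which 24 were lower and 4 higher; fewer genes are tested by construction, and PARP9 turned to -0.07. When genes under the 40th percentile in mean were dropped, the median moved to -1.23 over 42 members. Changes of sign were otherwise limited to members not called: IFIT5 after quantile normalization (-0.08), over the mean of its probe sets (-0.14), without the second PC-3/Mc array (-0.04) and without the third PC-3/S array (-0.0052), within a range of -0.04 to 0.08 over the arrays left out; EIF2AK2 after quantile normalization (-0.05) and without the second PC-3/Mc array (-0.0039, within -0.0039 to 0.09); and, over the mean of probe sets, PARP14 (-0.12) and XAF1 (0.0097). The cause was not tested.

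Deviations of arrays with the same replicate number correlated at -0.02, -0.26 and -0.38, so the numbers gave no sign of pairing. With a replicate block 34 members were lower, not all the same ones, since USP18 lost its call and EPSTI1 gained one; 7 were higher and 8090 genes called in all, against 9083 without it, and the median at -1.06; no array correlated best with that of its own number. With the 95th percentile of blood marker readings (5.13) as background, 12 folds were lower bounds, the same number as with 5.18. Detection calls were not used here, so signal near background limits what can be said of dim members.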

Other observations

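One probe set, annotated to both IFITM2 and IFITM1 and therefore outside the rule that chose the members, averaged 6.20 ± 0.12 (SD, n = 3) in PC-3/Mc, and 9.14 ± 0.19 (n = 3) for PC-3/S. Its difference of -2.94 ± 0.111 (limma, adjusted p = 1.3e-09 over all probe sets) lay between those of the probe sets of IFITM1 and IFITM2 alone.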
